A study of Mus musculus with 6 samples.

Results

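The 87 genes described here encode the proteins of the cytosolic ribosome and their close copies. They are the rows of a table of 14647 mouse genes whose symbol begins with Rpl or Rps and goes on as the symbol of a ribosomal protein does, with the S6 kinases and *Rps19bp1* left out. Of these, 46 are canonical members of the large subunit, 33 are canonical members of the small subunit and 8 are paralogues (*Rpl6l*, *Rpl7l1*, *Rpl22l1*, *Rpl36al*, *Rpl37rt*, *Rps4l*, *Rps27l* and *Rps27rt*). The table holds RNA-seq of the pharyngeal arch region from mouse embryos at E9.5, on a C57Bl/6J background. It compares 3 embryos that lack *Pax9* (*Pax9*-/-, called *Pax9*-null) with 3 stage-matched wild-type embryos, which gives 6 libraries. The loss of *Pax9*, a transcription factor of the pharyngeal endoderm, is constitutive, and the embryos were a mix of females and males. The 87 hold no row for *Rpl3l*, *Rpl10l* or *Rpl39l*, which are not analysed here.

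The cytosolic ribosome has a large subunit, which joins amino acids and releases the growing chain through a tunnel, and a small subunit, which reads the mRNA. Its proteins are needed in near equal numbers, and their mRNAs are among the most abundant of a growing embryo. Vertebrate ribosomal protein mRNAs begin with a run of pyrimidines next to the cap, the terminal oligopyrimidine tract, through which mTOR signalling sets their translation. Several ribosomal protein genes have a second functional copy, such as *Rpl22l1* beside *Rpl22* and *Rps27l* beside *Rps27*, and the genome holds many inactive retrocopies of the others.

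A run of this kind was sought near the RefSeq start sites of these genes. A RefSeq promoter sequence (GRCm38.p6) was at hand for 63 of the 87 genes. In 34 of the 63 (54.0%), a C followed by at least 5 more pyrimidines began within 10 bases of an annotated start, against 23.7% of the 9587 tested genes with a promoter sequence. The windows below run from 20 bases before an annotated start to 20 bases from it on, with such a run, called a tract below, in capitals. A tract so defined need not lie next to the cap. In *Rps27l* it begins 10 bases before the annotated start and ends ahead of it. It begins 6 bases after the start in *Rpl39* and 3 after it in *Rpl22l1*. They show pairs of parent and paralogue, and the canonical members with the largest and the smallest differences between genotypes in this set of promoters.
Rpl39: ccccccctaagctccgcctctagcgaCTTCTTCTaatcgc
Rps27: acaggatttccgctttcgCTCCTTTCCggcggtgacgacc
Rps27rt: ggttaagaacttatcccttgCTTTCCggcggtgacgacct
Rps27l: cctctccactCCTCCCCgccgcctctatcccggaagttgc
Rpl22l1: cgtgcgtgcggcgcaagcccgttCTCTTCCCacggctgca
Rpl22: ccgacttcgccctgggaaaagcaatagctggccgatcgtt
Rps16: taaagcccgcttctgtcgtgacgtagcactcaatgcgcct

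The windows lie at chrX:37085203-37085242 on the minus strand for *Rpl39*, at chr3:90213629-90213668 on the minus strand for *Rps27* and at chr9:114982720-114982759 on the minus strand for *Rps27rt*. On the plus strand, *Rps27l* is at chr9:66946066-66946105, *Rpl22l1* at chr3:28805488-28805527, *Rpl22* at chr4:152325706-152325745 and *Rps16* at chr7:28350669-28350708. RefSeq lists another start each for *Rpl22* and *Rps27l*, and neither of those 2 windows holds the tract. No tract was found beside the annotated starts of *Rpl22* and *Rps16*, which says only that these letters are not there. A tract was in 18 of the 35 promoters of members that rose in the test given below and in 16 of the 28 others. Of other motifs sought on both strands from 250 bases before to 50 bases after the start, CCGGAAG, a site of ETS factors, was in 25 of the 63 promoters (39.7%) and in 1915 of the 9587 promoters of tested genes. The word ATGGCGG, part of the YY1 site, was in 17.5% against 9.48%, and TATAAA in 11.1% against 8.61%.

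The files give log2 RPKM, reads scaled by exon length and by library size on a log2 scale. Between 11701293 and 12733654 reads per library on the listed genes could be recovered from these values. *Pax9* itself was lower in every *Pax9*-null library, with a log2 difference of -1.32 ± 0.19 (SE, n = 3 and 3; limma adjusted p = 0.0155) at 37 to 123 reads. Markers of the dissected region were present. Of 9 pharyngeal endoderm markers, 7 were among the listed genes, at a summed 83.7 to 103 RPKM with *Cldn6* the highest, and 2 were not listed. The 9 neural crest markers were at a summed 98.4 to 102 RPKM in *Pax9*-null and 89.8 to 92.6 RPKM in wild-type libraries. Of these 9, 1 was called higher and 1 lower (11.1% each). None of the markers of other cell types was at the floor of the table. The summed level of 11 red cell markers was 5019, 2692 and 4571 RPKM in *Pax9*-null replicates 1, 2 and 3 and 2453 to 2554 RPKM in wild-type libraries, and 2 of the 11 were called higher. The order of the *Pax9*-null libraries by these markers (1, 3, 2) was also their order by the ribosomal protein share given next, and the part of red cells in the differences was not tested. The summed level of 14 heart muscle markers was 82.1 RPKM in wild-type replicate 3 and 1366 to 1784 RPKM in the others. That of 11 neural markers was 242 RPKM in wild-type replicate 3 and 124 to 159 RPKM elsewhere, and 2 of the 11 were called lower. That of 10 endothelium markers was 116 RPKM in wild-type replicate 1 and 62.7 to 80.3 RPKM elsewhere, and 2 of the 10 were called lower. Wild-type replicate 1 is also the library with the lowest ribosomal protein share, and the part of these cell types was not tested. The calls came to 18.2% of the red cell list, 18.2% of the neural list and 20% of the endothelium list. Over all tested genes, 14.7% were called higher and 12.0% lower, so that by calls alone these short lists stood near the whole table. All 11 red cell markers had a positive log2 difference, with a median of 0.59. Medians were -0.64 for the neural list (4 of 11 above 0) and -0.44 for endothelium (2 of 10 above 0). For heart muscle the median was 1.29 (12 of 14 above 0), with 0 called. At an unadjusted limma p under 0.05, 6 red cell markers were higher, and 5 neural and 2 endothelium markers lower. In bulk tissue, more cells of a type and more RNA per cell cannot be told apart.

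The ribosomal protein mRNAs were abundant in all 6 libraries. By mean level, 80 of the 87 were in the highest decile of tested genes. They took 4.55, 4.08 and 4.44% of the recovered reads in *Pax9*-null replicates 1, 2 and 3. In wild-type replicates 1, 2 and 3 they took 2.82, 3.96 and 3.56%. The lowest *Pax9*-null library was thus above the highest wild-type library by a margin smaller than the spread within either genotype. The median log2 RPKM of the 79 canonical members was 8.23, 7.99 and 8.11 in the *Pax9*-null and 7.38, 7.99 and 7.78 in the wild-type libraries. By this median *Pax9*-null replicate 2 and wild-type replicate 2 stood level, although gene by gene *Pax9*-null replicate 2 was the higher for 60 of the 79, with a median difference of 0.09.

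Levels spanned a wide range among the canonical members. *Rps12*, a small subunit protein, was the most abundant per length, with a mean log2 RPKM of 10.16, and *Rplp1* led the large subunit with 9.58. The lowest were *Rps3a3*, at 2.35, and *Rpl24*, at 2.54. *Rpl24*, a large subunit protein near the contact with the small subunit, had 64 to 90 reads, and 51.8% of its 50-base words occur in other annotated transcripts. *Rps3a2* and *Rps3a3* fall in the small subunit by their symbols but are annotated as processed pseudogenes of *Rps3a1*. *Rpl6l*, *Rps4l* and *Rpl37rt* are annotated as pseudogenes as well, the last pair as transcribed ones. The authors kept uniquely aligned reads, so that such near-identical genes share reads that were discarded, and their values are uncertain. Level fell with summed exon length over the canonical members (Spearman's rho = -0.51, n = 79 genes, a description), and the summed length counts exons of all isoforms.

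**Figure D1:**
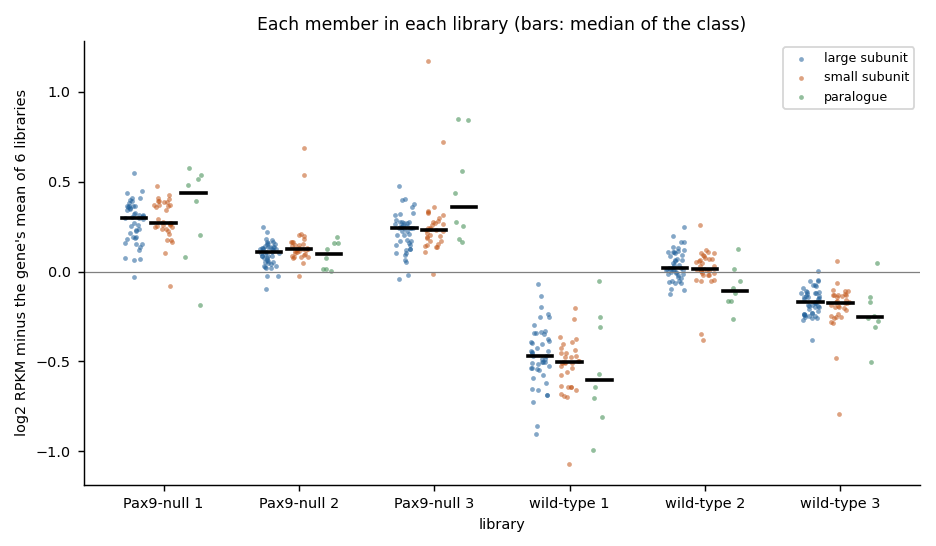
Log2 RPKM of each of the 87 genes in each library, as the difference from the mean of that gene over the 6 libraries (y axis), by library (x axis) and class (colour), with a bar at the class median. Wild-type replicate 1 lies lowest in all classes, and wild-type replicate 2 lies nearest to the Pax9-null libraries.

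Within each genotype the members moved together. Wild-type replicate 1 was the lowest of the 6 libraries for 77 of the 79 canonical members, and wild-type replicate 3 for the other 2. Wild-type replicate 2 was the highest wild-type library for all 79. *Pax9*-null replicate 2 was the lowest *Pax9*-null library for 71. The median SD over members was 0.26 in wild-type and 0.11 in *Pax9*-null libraries on the log2 scale. The balance of the subunits varied less. The median of the small subunit lay above that of the large subunit by 0.42 to 0.50 log2 RPKM in *Pax9*-null and by 0.28 to 0.52 in wild-type libraries, ranges that overlap.

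To ask whether the genotypes differed, limma was run over the 13547 genes that had 0.5 RPKM or more on average, on the deposited values, and genes with a Benjamini-Hochberg adjusted p of at most 0.1, the threshold of the study, were called. All 87 members were tested. All 87 had a positive log2 difference (*Pax9*-null minus wild-type), so that none was lower (63 stayed positive after quantile scaling and 69 without the trends of length and GC content, both described below), and 48 were called higher, against 14.7% of all tested genes. At an unadjusted p under 0.05 the number was 63, and voom on the recovered reads called 62, against 15.3% of all genes. The 48 comprised 25 of 46 in the large subunit, 18 of 33 in the small subunit and 5 of 8 paralogues. The median log2 difference was 0.41 for the large subunit, 0.44 for the small subunit and 0.68 for the paralogues, and -0.001 over all tested genes. In 66 of the 87 (33 large, 27 small and 6 paralogues) all *Pax9*-null libraries lay above all wild-type libraries, which was so for 21.8% of the tested genes. The number of calls varied with the library left out. Without *Pax9*-null replicate 1 only *Rps3a2* and *Rps3a3* were called, and without *Pax9*-null replicate 3 only *Rps3a3*. Calls over the whole table fell as well in these 2 fits, to 1.93% and 1.13% of tested genes called higher. The median log2 difference of the canonical members was 0.38 and 0.43 in them, against 0.43 with all 6 libraries. Over the 6 fits that left out a library it ran from 0.29 to 0.54. A group then has 2 libraries, and the cause of the fall in calls was not tested. Fits that omitted wild-type replicate 1 or 3 called 23 and 19 members, against 8.13% and 9.16% of all tested genes. The fit that omitted wild-type replicate 2 called 74 (14.8% of all), and *Pax9*-null replicate 2 left out gave 33 (12.4% of all).

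**Figure D2:**
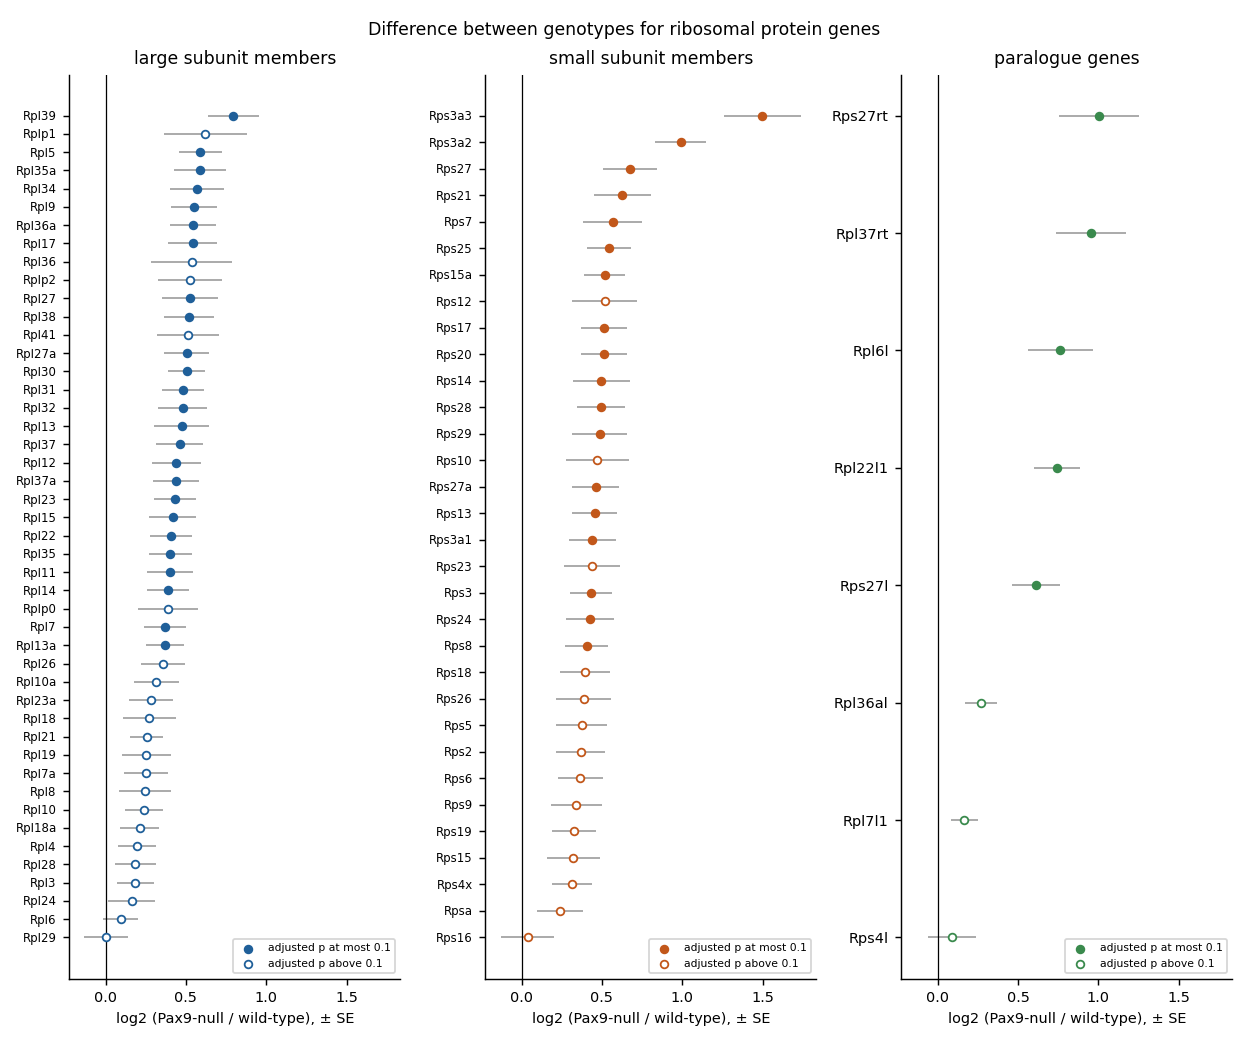
Log2 difference between Pax9-null and wild-type libraries (x axis, ± SE from limma, n = 3 and 3) for 86 of the 87 genes (y axis), by class. Filled points have an adjusted p of at most 0.1, as 48 do, and all points drawn lie above 0.

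Among large subunit genes the largest difference was in *Rpl39*, a small protein that lines the exit tunnel (X:37082520-37085402, minus strand; gene coordinates are those of GENCODE M21 on GRCm38). Its log2 RPKM was 8.24, 7.94 and 8.09 in *Pax9*-null and 7.003, 7.57 and 7.31 in wild-type replicates 1, 2 and 3. The groups were apart by 0.37, and the log2 difference was 0.80 ± 0.16 (SE; limma adjusted p = 0.0343). It was called in 4 of the 6 fits that left out a library (adjusted p 0.0178 to 0.15). *Rpl39* is X-linked, as are *Rpl36a*, *Rps4x* and *Rpl10*, of which *Rpl36a* was called (0.54 ± 0.14, limma adjusted p = 0.0518) and *Rps4x* (0.31 ± 0.13, adjusted p = 0.121 by limma) and *Rpl10* (0.24 ± 0.12, adjusted p = 0.184 by limma) were not. The sex of each embryo is not in the labels, and its part in these values was not tested.

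In the 5S particle, *Rpl5* and *Rpl11* carry the 5S rRNA into the large subunit, and outside the ribosome they bind the p53 regulator Mdm2. Both were called higher, as were 25 of the 46 large subunit genes. *Rpl5* was at 8.14, 7.88 and 7.97 log2 RPKM in *Pax9*-null and 7.16, 7.60 and 7.45 in wild-type libraries, without overlap. Its log2 difference was 0.59 ± 0.14 (limma adjusted p = 0.0427). *Rpl11* was at 7.86, 7.70 and 7.84 against 7.09, 7.62 and 7.48, where the lowest *Pax9*-null value was 0.08 above the highest wild-type value. Its log2 difference was 0.40 ± 0.14 (limma adjusted p = 0.0967), close to the threshold. Of the 6 fits that left out a library, *Rpl5* was called in 4 and *Rpl11* in 1. With the trends of length and GC content removed, neither was called (limma adjusted p = 0.122 for *Rpl5* and 0.129 for *Rpl11*).

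The stalk, whose acidic proteins recruit elongation factors to the ribosome, had no call among its 3 genes by limma, with 2 at an unadjusted p under 0.05 and 2 called by voom. *Rplp1* was at 9.88, 9.80 and 9.98 log2 RPKM in *Pax9*-null and 8.67, 9.74 and 9.38 in wild-type libraries. The difference of 0.62 ± 0.26 was the second largest of the large subunit, but the wild-type libraries had an SD of 0.54 and the adjusted p was 0.13 by limma. *Rplp2*, its partner, was at 7.35, 7.19 and 7.41 against 6.33, 7.19 and 6.86, where the groups met at wild-type replicate 2 (0.52 ± 0.20, limma adjusted p = 0.11). *Rplp0*, which anchors both, differed by 0.39 ± 0.19 (limma adjusted p = 0.177).

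*Rpl35a* and *Rpl34* also stood near the top of the large subunit, and *Rpl35a* is among the genes mutated in Diamond-Blackfan anaemia in humans. *Rpl35a* was at 6.88, 6.60 and 6.70 log2 RPKM in *Pax9*-null and 5.81, 6.44 and 6.17 in wild-type libraries (0.59 ± 0.16, limma adjusted p = 0.0553). *Rpl34* was at 7.13, 6.86 and 7.06 against 6.08, 6.72 and 6.54 (0.57 ± 0.17, limma adjusted p = 0.0639). In both, wild-type replicate 1 was the lowest library by a wide margin. Over the whole list of 18 genes of that human anaemia, an inherited failure of red cell production, 13 were called higher and 0 lower. Called higher were thus 72.2% of the list, beside 54.4% of all canonical members and 14.7% of all tested genes. The median log2 difference of the list was 0.48, against 0.43 for the canonical members, and 0.15 after quantile scaling. With the trends of length and GC content removed, 0 of the 18 were called.

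The smallest differences of the large subunit were in *Rpl29*, *Rpl6*, *Rpl24*, *Rpl3* and *Rpl28*. *Rpl29* was at 7.63, 7.64 and 7.72 log2 RPKM in *Pax9*-null and 7.41, 7.91 and 7.67 in wild-type libraries, so that the *Pax9*-null values lay inside the wild-type range. The difference was 0.002 ± 0.13 (limma adjusted p = 0.994). *Rpl6* was at 7.70, 7.58 and 7.54 against 7.36, 7.67 and 7.51, groups that overlap (0.09 ± 0.11). *Rpl24*, at its low level, differed by 0.16 ± 0.15, and *Rpl28* by 0.19 ± 0.13. *Rpl3*, which reaches into the catalytic centre, was at 8.60, 8.47 and 8.55 against 8.20, 8.51 and 8.36 (0.19 ± 0.12). After quantile scaling *Rpl29*, *Rpl6*, *Rpl3* and *Rpl28* were at -0.30, -0.16, -0.20 and -0.06, and *Rpl24* at 0.19. Of the 6 genes listed for the catalytic centre and the core around it, 1 was called higher, and of the 10 listed around the exit tunnel, 6 were, where 14.7% of all tested genes were. The medians were 0.24 and 0.41, and -0.15 and 0.13 after quantile scaling. Their order turned once length and GC trends were taken out, at 0.15 and 0.11. The tunnel list takes in *Rpl24*, placed above near the contact with the small subunit and at -0.23 in that fit. Its counts and medians are therefore not those of tunnel proteins alone, and the turn was not tested without *Rpl24*.

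In the small subunit, the largest difference of a functional gene was in *Rps27*, which like its paralogue carries a zinc finger (3:90212522-90213651, minus strand). It was at 8.67, 8.39 and 8.53 log2 RPKM in *Pax9*-null and 7.52, 8.14 and 7.91 in wild-type libraries. The groups did not overlap, and the log2 difference was 0.67 ± 0.17 (limma adjusted p = 0.0482). *Rps21* (0.63 ± 0.18, limma adjusted p = 0.0591) and *Rps7* (0.57 ± 0.18, limma adjusted p = 0.0768) followed. *Rps21* was at 8.42, 8.26 and 8.40 against 7.35, 8.06 and 7.79, and *Rps7* at 9.58, 9.32 and 9.52 against 8.55, 9.20 and 8.98. Both had all *Pax9*-null libraries above all wild-type libraries.

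*Rps6*, whose protein is the classical substrate of the S6 kinases, had an adjusted p above the threshold. It was at 8.48, 8.30 and 8.43 log2 RPKM in *Pax9*-null and 7.79, 8.28 and 8.05 in wild-type libraries, without overlap but with 0.02 between the nearest values (0.36 ± 0.14, limma adjusted p = 0.113). The lowest difference was in *Rps16*, which lies near the decoding site (7:28350652-28353155, plus strand). It was at 7.66, 7.89 and 7.73 against 7.37, 8.01 and 7.80, where the highest value was a wild-type library (0.04 ± 0.17, limma adjusted p = 0.896). *Rpsa* (0.24 ± 0.14), *Rps4x* and *Rps15* (0.32 ± 0.17) were also at the lower end, and none of them was called. *Rpsa*, at the exit of the mRNA, is also known as a laminin receptor. Of 12 genes listed for decoding and the mRNA channel, 4 were called higher (33.3%), with a median of 0.41. The share was 54.5% in the small subunit and 14.7% over all tested genes.

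*Rps3a3* and *Rps3a2* headed the small subunit by fold, at low levels. *Rps3a3* had 24 to 107 reads and was at 2.74, 3.04 and 3.53 log2 RPKM in *Pax9*-null and 1.28, 1.97 and 1.56 in wild-type libraries (1.50 ± 0.24, limma adjusted p = 0.0204). It was called in all 6 fits that left out a library. *Rps3a2* differed by 0.99 ± 0.16 at 33 to 80 reads (limma adjusted p = 0.0203). Of their 50-base words, 65.1% and 90.2% occur in other transcripts. Their parent *Rps3a1*, with 7572 to 11295 reads, was called with a difference of 0.44. Without these pseudogenes, 16 of 31 small subunit members were called.

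The paralogues gave the question of whether copies moved with their parents. *Rpl22l1*, the second gene for the tunnel-side protein eL22, had the lowest adjusted p of the 8 (3:28805436-28807424, plus strand). It was at 6.62, 6.27 and 6.55 log2 RPKM in *Pax9*-null and 5.47, 5.95 and 5.80 in wild-type libraries, with 0.32 between the groups (0.74 ± 0.15, limma adjusted p = 0.0343). *Rpl22*, the parent, was at 7.69, 7.43 and 7.62 against 6.93, 7.32 and 7.25 (0.41 ± 0.13, limma adjusted p = 0.0738). The log2 ratio of *Rpl22l1* to *Rpl22* was -1.06, -1.16 and -1.07 in *Pax9*-null and -1.46, -1.37 and -1.46 in wild-type libraries. The ratio was thus higher in every *Pax9*-null library, by 0.33 on average, with SDs of 0.05 in each genotype. Freed of the length and GC trends the difference in ratio was 0.02, so that its size depended on the scaling. An exact permutation test of 3 against 3 libraries, two-sided, gave p = 0.1, the smallest it can give, and 0.3 after adjustment over 6 pairs.

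*Rps27l*, known as a p53-responsive gene, lay close below its parent *Rps27* in each library. It was at 8.31, 7.98 and 8.10 log2 RPKM in *Pax9*-null and 7.25, 7.73 and 7.57 in wild-type libraries (9:66946086-66949516, plus strand). The log2 difference was 0.61 ± 0.15 (limma adjusted p = 0.0459), and the ratio to *Rps27* was lower by 0.06 on average with overlapping groups (exact permutation p = 0.3). With the trends of gene length and GC content removed, the difference of *Rps27l* was -0.06, so that its direction depended on the scaling. *Rps27rt*, a short copy with 19 to 64 reads, differed by 1.003 ± 0.25 (limma adjusted p = 0.0471), and 91.1% of its words occur elsewhere. Its ratio to *Rps27* was higher by 0.33, with overlapping groups, and with the same trends removed the ratio differed by -0.22.

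*Rpl36al*, the autosomal copy of *Rpl36a*, differed less than its parent. It was at 6.70, 6.51 and 6.67 log2 RPKM against 6.24, 6.51 and 6.32 (0.27 ± 0.10, limma adjusted p = 0.107, not called). The log2 ratio to *Rpl36a* was -1.50, -1.40 and -1.40 in *Pax9*-null and -1.02, -1.23 and -1.23 in wild-type libraries, lower in every *Pax9*-null library (difference -0.27, exact permutation p = 0.1). *Rpl7l1* was at 6.79, 6.71 and 6.87 against 6.65, 6.65 and 6.57, with a small difference of 0.17 ± 0.08 (limma adjusted p = 0.196). *Rps4l* was at 5.20, 5.46 and 5.64 against 5.08, 5.51 and 5.44, values that overlap (0.09 ± 0.15). Their ratios to *Rpl7* and *Rps4x* were lower by 0.21 and 0.22, and in neither were the groups apart. The low copies *Rpl37rt* (0.96 ± 0.22, limma adjusted p = 0.0426) and *Rpl6l* (0.76 ± 0.20, limma adjusted p = 0.0532) were called, at 52 to 153 and 38 to 85 reads. An adjusted p of 0.1 would have needed the smallest p in all 6 pairs, and the adjusted values ran from 0.3 to 0.4.

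**Figure D3:**
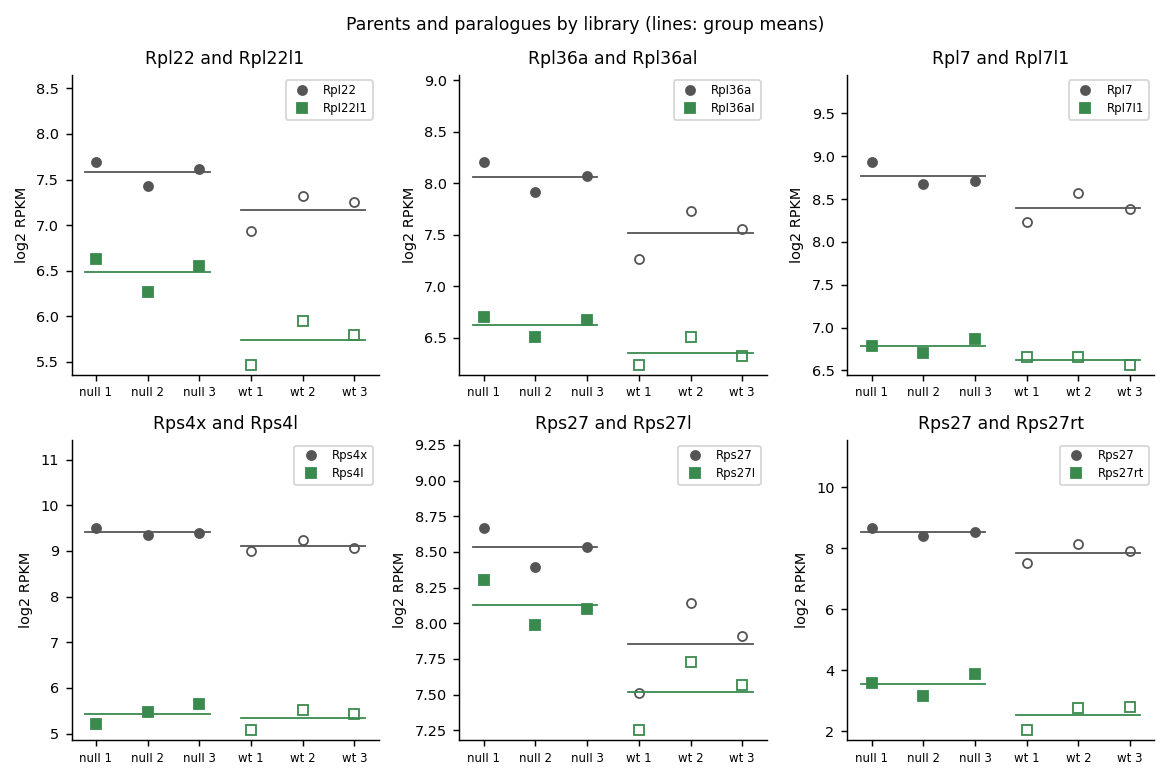
Log2 RPKM (y axis) of parents (grey circles) and paralogues (green squares) in the 3 Pax9-null (filled) and 3 wild-type (open) libraries, with lines at the group means and a separate y range in each panel. Rpl22l1 rises by 0.74 where Rpl22 rises by 0.41, and Rps27l lies 0.26 to 0.43 below Rps27 in each library.

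To see which members departed from the shift of the family, each library was centred on the median of the canonical members, which took away a difference of 0.40, and the test was run again. By construction this test puts the family near 0 and other genes below, and it called 3.18% of all tested genes higher and 24.3% lower. The adjustment ran over all these genes, so that the many pushed below eased the threshold for the members. Of the 87 members, 3 were called higher, near the share of all tested genes, and 2 lower. These calls therefore do not show by themselves that a member departed from the family. Higher were *Rps3a3* (1.10 ± 0.28, limma adjusted p = 0.0309), *Rps27rt* (0.61 ± 0.25, limma adjusted p = 0.0962) and *Rpl39* (0.40 ± 0.13, limma adjusted p = 0.0534). Lower were *Rpl29* (-0.39 ± 0.14, limma adjusted p = 0.0624) and *Rps16* (-0.36 ± 0.14, limma adjusted p = 0.0898). *Rpl22l1* was at 0.35 ± 0.16 in this fit (limma adjusted p = 0.134). The count was 0 to 11 when a library was left out.

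Short genes and genes of low GC content were higher in *Pax9*-null libraries across the whole table, with a Spearman's rho of the log2 difference of -0.41 with length and -0.44 with GC content over the tested genes. Among the 79 canonical members, which have a median summed exon length of 1662 bases, the values were -0.15 and -0.28. The members can be set beside other genes of like length. In the lowest length decile of the other tested genes, up to 1381 bases, the median log2 difference was 0.55, and 6 of the 28 canonical members of that length lay above it. That decile holds many non-coding genes, and against its 565 protein-coding genes, with a median of 0.26, 22 of the 28 lay above. All 51 longer canonical members lay above the median of their length decile. When every library was freed of its trends with length and GC, the canonical median was 0.31, 69 of the 87 members stayed above 0, and 2 (*Rpl39* and *Rps3a3*) were called, against 1.67% of all tested genes. Of all genes called in that fit 226 of 339 were higher, and of those called as deposited 1990 of 3611. With quantile scaling the canonical median was 0.11, 63 members were above 0, 16 were called higher (10.6% of all tested genes), and *Rpl3* and *Rpl29* were called lower (12.9% of all). What part of the shift goes with length and GC content and what part with the genotype cannot be told apart in the values as deposited.

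**Figure D4:**
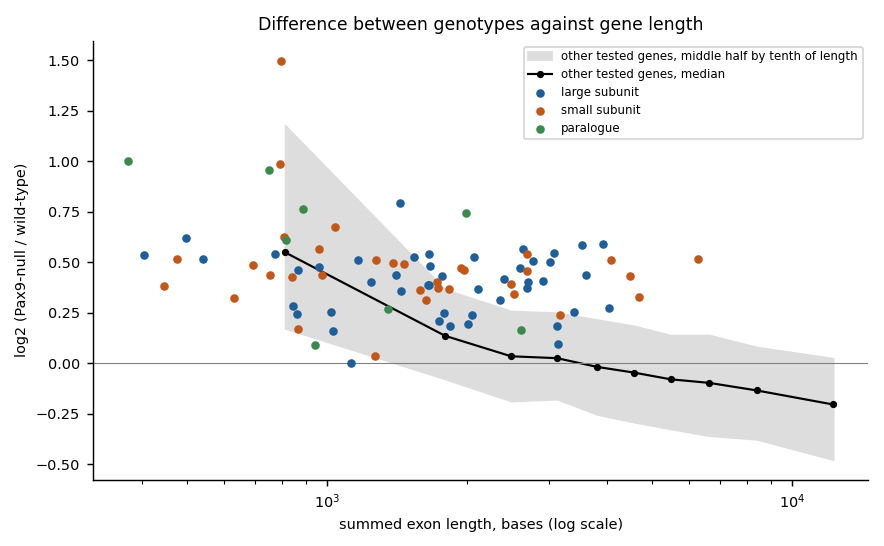
Log2 difference between Pax9-null and wild-type libraries (y axis) against summed exon length in bases (x axis, log scale) for the 87 genes (coloured points), over the median and the quartiles of the other tested genes by length decile (line and grey band). All 51 canonical members over 1381 bases lie above the line, and 6 of the 28 shorter ones do.

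Other housekeeping families had smaller medians as deposited. Over all tested genes, 14.7% were called higher and 12.0% lower. Of 75 mitochondrial ribosomal protein genes 21 were called higher (28.0%) and 0 lower, with a median log2 difference of 0.22. Of 88 respiratory chain genes 38 were called higher (43.2%) and 1 lower, with a median of 0.30. Of 36 proteasome subunit genes 12 were called higher (33.3%) and 1 lower, with a median of 0.16. After quantile scaling these medians were 0.16, 0.14 and -0.02, so that the first pair were no longer below the 0.13 of the large and the 0.10 of the small subunit. Free of the length and GC trends, they were 0.04, 0.09 and 0.03, against 0.27 for the large and 0.31 for the small subunit. Among the 252 other genes above the lower quartile of the canonical members in level, 34.5% were called higher and the median was 0.28.

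The rest of the translation machinery was read from lists. *Fau* and *Rack1*, ribosomal proteins whose symbols differ, had log2 differences of 0.21 ± 0.17 (limma adjusted p = 0.411) and 0.36 ± 0.14 (limma adjusted p = 0.111), and neither was called. Of 5 elongation factor genes only *Eef1b2* was called (0.45 ± 0.14, limma adjusted p = 0.0699), and *Eef2*, which moves the ribosome along the mRNA, differed by -0.13 ± 0.12. Of 18 genes outside the symbol rule whose mRNAs are known to carry the pyrimidine tract, a list that takes in those 5 factors, *Fau* and *Rack1*, 5 were called higher and 0 lower, with a median of 0.24, or -0.10 after quantile scaling. Of 106 ribosome assembly factors, which build the subunits in the nucleolus, 17 were called higher (16.0%) and 13 lower (12.3%), with a median of -0.03, shares near the 14.7% and 12.0% of all tested genes. Of the 9 S6 kinase genes left out by the symbol rule, 1 was called in each direction.

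**Figure D5:**
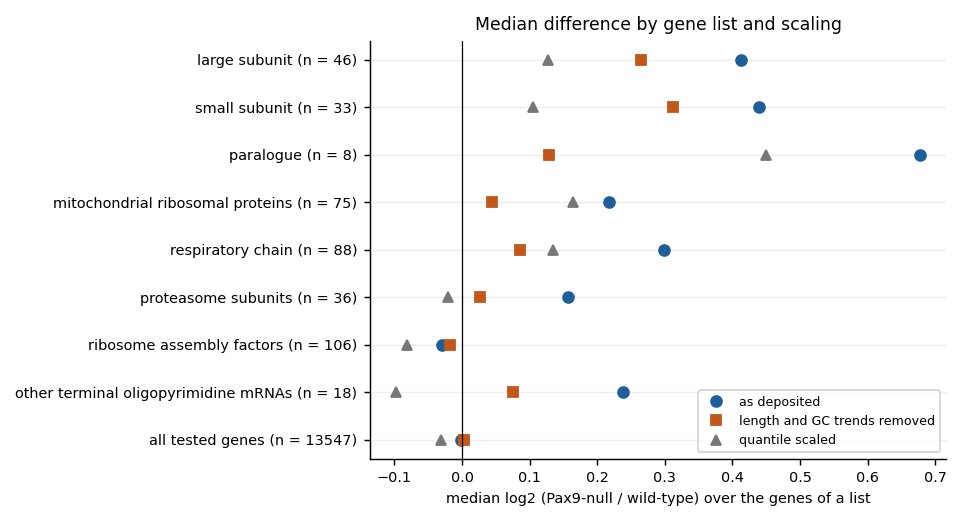
Median log2 difference between Pax9-null and wild-type libraries (x axis) over the genes of each list (y axis), as deposited (circles), with length and GC trends removed (squares) and after quantile scaling (triangles). Both subunits lie above the lists drawn from outside the family as deposited and with the trends removed, at 0.41 and 0.44 and at 0.27 and 0.31, and at 0.13 and 0.10 after quantile scaling, where mitochondrial ribosomal proteins and the respiratory chain are at 0.16 and 0.14.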

How the data were processed

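Total RNA of the dissected pharyngeal region was sequenced. The labels name sorted cells and Smart-seq2 libraries, whereas the methods describe whole tissue and first-strand specific TruSeq libraries, and the latter is followed here. After adaptor trimming, the authors restricted the data to unique alignments without duplicates, drew the libraries down towards the smallest and counted reads on Ensembl genes of GRCm38, without strand; duplicate removal can limit the counts of short, abundant genes. The submitters' processing notes name Trimmomatic 0.32, STAR 2.5.1a and featureCounts 1.5.1. The deposited values are log2 RPKM per gene and library. Whole reads (within 0.05 of a whole number, prior count 0.5) were recovered for 14646 of 14647 genes, 11820 of them at the exon length of GENCODE M21.

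Tests used limma 3.58.1 in R 4.3.3, two-sided, with a variance trend, after tests on simulated data. Adjusted p-values cover all 13547 tested genes, and ratios used an exact permutation test. Named were paralogues and parents, the 5 highest and 5 lowest differences of each subunit, members called lower or relative to the family, and the stalk, 5S, S6 and X-linked lists. *Rps12*, *Rps3a1*, *Rpl37* and genes outside the family were named after their values were seen. Values of single genes that the rule names but the text does not are not reported here; they are in the counts. Members and lists were chosen with earlier results of these data known. Of the alternatives, voom on recovered reads, the count without *Rps3a2* and *Rps3a3* and the additional copies were added after seeing the data.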

Additional observations from a re-analysis of the deposited data

How the results depend on the processing

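All canonical members and paralogues kept a positive log2 difference under both other pseudocounts (0.1 and 1), both other filters (none and a mean of at least 5 RPKM), median centring, the variance model without a trend and voom. Calls were less stable. Quantile scaling left 8 large subunit genes called (6 higher, and *Rpl3* and *Rpl29* lower) and 5 small subunit genes (all higher), with median differences of 0.13 and 0.10. The variance model without a trend left 14 large subunit genes, against 10.7% of all tested genes called higher. An adjusted p of at most 0.05 left 3 large and 5 small subunit genes, against 833 of all 13547 tested genes called higher. Removal of the length and GC trends left 1 large and 1 small subunit gene and 0 paralogues. Leaving out a library gave 0 to 38 large and 1 to 30 small subunit genes and 0 to 6 paralogues, with medians of 0.29 to 0.53 for the large and 0.30 to 0.57 for the small subunit; a group then has 2 libraries, and the cause was not tested. Calls relative to the family numbered 5 (3 higher and 2 lower) and became 10 with library weights (8 higher and 2 lower), 15 with length and GC trends removed (2 higher and 13 lower), 1 higher without a variance trend, 1 higher at an adjusted p of at most 0.05 and 0 to 11 when a library was left out.

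With the replicate number as a block, 1 large and 2 small subunit genes, 4 paralogues and 1 member relative to the family were called. In the whole table these were *Rpl22l1*, *Rpl37rt*, *Rpl39*, *Rpl6l*, *Rps27rt*, *Rps3a2* and *Rps3a3*. They are 7 of the 87 members, beside 6.51% of all tested genes called higher in that fit. The libraries share only a number. Deviations of same-numbered libraries from their group means had Pearson's r of -0.02, -0.17 and 0.26 across genes.

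Directions turned as follows. Under quantile scaling the log2 difference was -0.0128 for *Rplp0*, -0.0401 for *Rpl7*, -0.12 for *Rpl10*, -0.0638 for *Rpl28*, -0.20 for *Rpl3*, -0.16 for *Rpl6*, -0.30 for *Rpl29*, -0.0430 for *Rpl7l1*, -0.0143 for *Rps4l*, -0.0439 for *Rps15*, -0.0703 for *Rps4x*, -0.14 for *Rpsa* and -0.25 for *Rps16*, and 0.0560 for the ratio of *Rps4l* to *Rps4x*. With length and GC trends removed it was -0.23 for *Rpl24*, -0.14 for *Rpl29*, -0.0568 for *Rps27l*, -0.13 for *Rps4l*, -0.0746 for *Rps15* and -0.17 for *Rps16*, and -0.22 for the ratio of *Rps27rt* to *Rps27*. With library weights it was -0.0639 for *Rpl29*, -0.0242 for *Rps4l* and -0.0760 for *Rps16*. When a library was left out, *Rpl29* ran from -0.13 to 0.13, *Rps4l* from -0.0412 to 0.21 and *Rps16* from -0.14 to 0.18.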

Other observations

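The table also lists 64 genes marked as ribosomal protein pseudogenes by a symbol of this family followed by -ps. They were chosen after their values were seen, and pseudogenes of other families were not looked at. All 64 had a positive log2 difference, and 49 were called higher and 0 lower, against 14.7% of all tested genes called higher. The median difference was 1.34, against 0.43 for the canonical ribosomal protein genes. With length and GC trends removed the median was 0.74, and 20 were called higher, against 1.67% of all tested genes. Their median summed exon length was 486.5 bases. Of the low copies among the ribosomal protein genes, 4 were set beside their parents after their values were seen. The log2 ratio of copy to parent was higher in *Pax9*-null libraries by 0.67 for *Rpl6l* to *Rpl6*, 0.49 for *Rpl37rt* to *Rpl37*, 0.55 for *Rps3a2* and 1.06 for *Rps3a3* to *Rps3a1*, and with length and GC trends removed by 0.28, 0.42, 0.44 and 0.94. The ratio of *Rps4l*, also annotated as a pseudogene, to *Rps4x* was lower, at -0.22. The 4 ratios to *Rpl6*, *Rpl37* and *Rps3a1* were not tested. Canonical members with under 20% of their 50-base words in other transcripts were called in 20 of 30 cases, with a median log2 difference of 0.45, and the others in 23 of 49, with a median of 0.40.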
